A study of Mus musculus with 10 samples.

Results

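Dual-specificity MAP kinase phosphatases are enzymes that switch off the MAP kinases ERK, JNK and p38 by removing phosphate from both a threonine and a tyrosine in the activation loop of the kinase. The 10 genes described here were taken by name from a table of 40789 genes: Dusp1, Dusp2, Dusp4 and Dusp5 of the nuclear, inducible class, Dusp6 and Dusp7 of the cytoplasmic, ERK-directed class, Dusp10 and Dusp16 of the class that acts on JNK and p38, and the small atypical enzymes Dusp3 and Dusp22. The RNA came from microglia, which are macrophages that live in the brain, of 10 female C57BL6/J mice of 2 to 3 months. LPS mice (n = 5) received 4 mg/kg lipopolysaccharide, a bacterial cell wall component, into the peritoneum, and saline mice (n = 5) received saline solution by injection. All 10 mice were CX3CR1+/egfp, so that a green fluorescent reporter stood in place of 1 copy of Cx3cr1, the fractalkine receptor gene, in both groups. The cortex was taken 24 h after the injection and the cells bright for the reporter were sorted, and each library came from a single mouse.

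As background, macrophages that sense LPS activate ERK, JNK and p38 through the receptor Tlr4, and several of these phosphatase genes are themselves induced by the kinases they switch off, so that the enzymes form a negative feedback on the cascade. Dusp1 is the best known of them in macrophages, where it limits p38 and JNK activity and the output of inflammatory cytokines; it is also a target of glucocorticoids and an immediate early gene that responds within minutes to stress. Dusp6 RNA is widely used as a readout of ERK activity.

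The libraries held 11577295 to 15332121 counts, and the test found no difference between groups (exact two-sided permutation p = 0.841). Levels are given as CPM, each count as a share of its library's total after TMM scaling, and between genes as the RPKM of the authors, which also divides by length. All 11 tested microglia markers were present, with a summed level of 17438 to 38856 CPM in LPS and 64592 to 74461 CPM in saline, and 7 of them were lower in LPS. Of all 13793 tested genes, 22.4% were higher and 22.5% lower in LPS by the edgeR test given below. Groups did not overlap for 29.8% of them, in either direction. Of the other cell lists, the summed level of 9 monocyte markers was 78.1 to 219 CPM in LPS and 14.4 to 22.8 CPM in saline, with 3 of 6 tested markers higher and 2 lower, and that of 9 border macrophage markers was 812 to 2088 CPM in LPS and 615 to 894 CPM in saline, with 5 of 6 tested markers higher and 0 lower. The monocyte sum was carried by Ms4a4c, with means of 99.4 CPM in LPS and 4.19 CPM in saline, and Fn1, with 34.4 CPM in LPS and 0.198 CPM in saline. In the same list Ccr2, the chemokine receptor that marks classical monocytes, was 4.17-fold lower and Spn 4.59-fold lower in LPS. Lymphocyte markers other than Cd79b summed to 0.313 to 3.36 CPM in LPS and 0.214 to 1.71 CPM in saline. Endothelial and mural markers summed to 11.9 to 15.9 CPM in LPS and 57.7 to 82.7 CPM in saline, and astrocyte markers to 147 to 368 CPM in LPS and 370.5 to 433 CPM in saline. The first sum was carried by Pecam1, with means of 7.05 CPM in LPS and 54.1 CPM in saline, and Cldn5 had no counts. The astrocyte sum was carried by Slc1a3, with 211 CPM in LPS and 381 CPM in saline. Gfap averaged 2.13 CPM in LPS and 0.739 CPM in saline. The border macrophage sum was carried by Stab1, with 1061 CPM in LPS and 690 CPM in saline. Mrc1 averaged 7.32 CPM in LPS and 10.3 CPM in saline. The sums of neuron and oligodendrocyte markers overlapped between groups, at 3.13 to 6.34 and 86.4 to 114 CPM in LPS and at 4.42 to 10.3 and 99.7 to 125 CPM in saline. The sum of 9 neutrophil markers overlapped as well, at 461 to 808 CPM in LPS and 558 to 773 CPM in saline, but its members moved apart, with 2 of 3 tested markers higher and 1 lower. Lcn2 averaged 233 CPM in LPS and 0.762 CPM in saline, Cxcr2 4.82 CPM in LPS and 0.112 CPM in saline, and Csf3r 399 CPM in LPS and 668 CPM in saline, each with groups that did not overlap. Short genes took a larger share of counts in LPS: the shortest 20% of genes by relative length held 23.3% ± 3.57 in LPS and 14.7% ± 2.23 in saline (SD, n = 5 each, two-sided exact permutation p = 0.00794, the lowest value possible with these group sizes). The part of these shifts in the results below was not tested, except where a value without the length trend is given. In sorted bulk cells, fewer cells of a type and less RNA per cell cannot be told apart.

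LPS against saline asks how the phosphatase genes differed 24 h after the challenge. Dusp7, a cytoplasmic ERK phosphatase, was 2.07-fold lower in LPS, with every LPS mouse below every saline mouse. Dusp2, a low-abundance nuclear phosphatase, was called higher, a call that was lost without either of 2 LPS mice. Dusp6, the most abundant member, and Dusp1, the most variable, averaged lower and higher in LPS and did not pass the test, and Dusp3, Dusp10, Dusp16 and Dusp22 did not pass it either. Dusp4 and Dusp5 were too scarce to be tested. The test was edgeR's quasi-likelihood F test over all 13793 genes that passed its filter on low counts, with a Benjamini-Hochberg adjusted p below 0.05 as the threshold. It called 1 of 8 tested members higher and 1 of 8 lower, where it called 22.4% of all tested genes higher and 22.5% lower, so the share called was not above that of the transcriptome. In either direction the background was 45% with edgeR, 38.8% with the gene-length trend removed, 37% with DESeq2 and 51% with limma on RPKM. The median log2 fold change of the 8 members was -0.04, against 0.0014 for all tested genes.

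**Figure D1:**
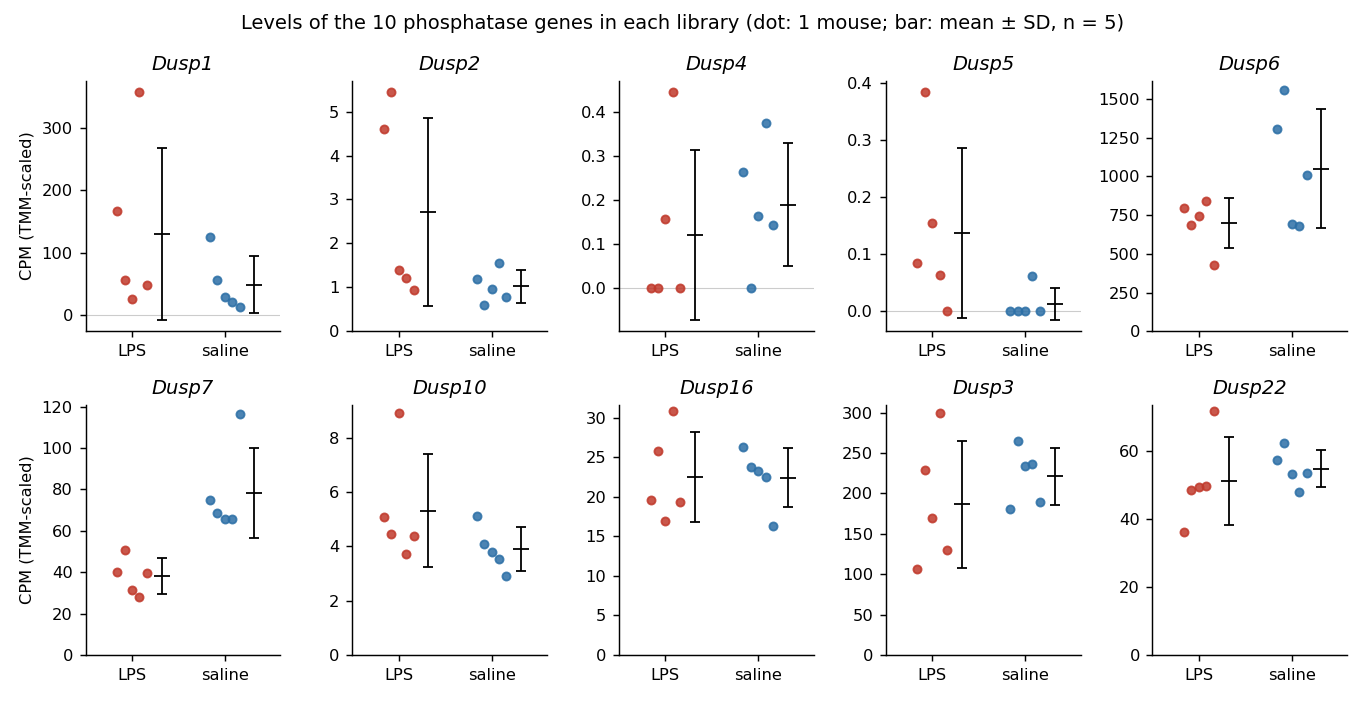
CPM of each of the 10 phosphatase genes on linear axes of their own, 1 dot per mouse in LPS (left) and saline (right), with the mean ± SD (n = 5) as a bar. Dusp7 is the member whose groups do not overlap, and the spread of Dusp1 and Dusp2 in LPS rests on 2 mice each.

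Compared per length in the authors' RPKM, Dusp6 was the highest of the 8 members with an RPKM value in every library of both groups. It had a mean of 252.8 ± 57.3 RPKM in LPS and 372 ± 138 RPKM in saline (SD, n = 5 each), and made up 51.6 to 76.3% of the summed RPKM in LPS and 69.3 to 80.6% in saline. Dusp1 and Dusp3 followed, with means of 67.4 and 42.02 RPKM in LPS and 24.9 and 48.9 RPKM in saline; their order differed between libraries, Dusp1 being above Dusp3 in 2 of 5 LPS libraries and below it in 4 of 5 saline libraries. In saline the mean of Dusp7 was 24.0 RPKM, next to that of Dusp1, which was above Dusp7 in 2 of 5 libraries. Dusp22 and Dusp7 came next in LPS, Dusp22 above Dusp7 in 3 of 5 LPS libraries and Dusp7 above Dusp22 in 5 of 5 saline libraries, with overlapping ranges in both groups. Dusp16, Dusp10 and Dusp2 were lowest, at means of 3.40, 1.94 and 1.71 RPKM in LPS and 3.31, 1.39 and 0.620 RPKM in saline. Dusp10 and Dusp2 overlapped in LPS, with 3 of 5 libraries in that order, whereas they did not overlap in saline.

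**Figure D2:**
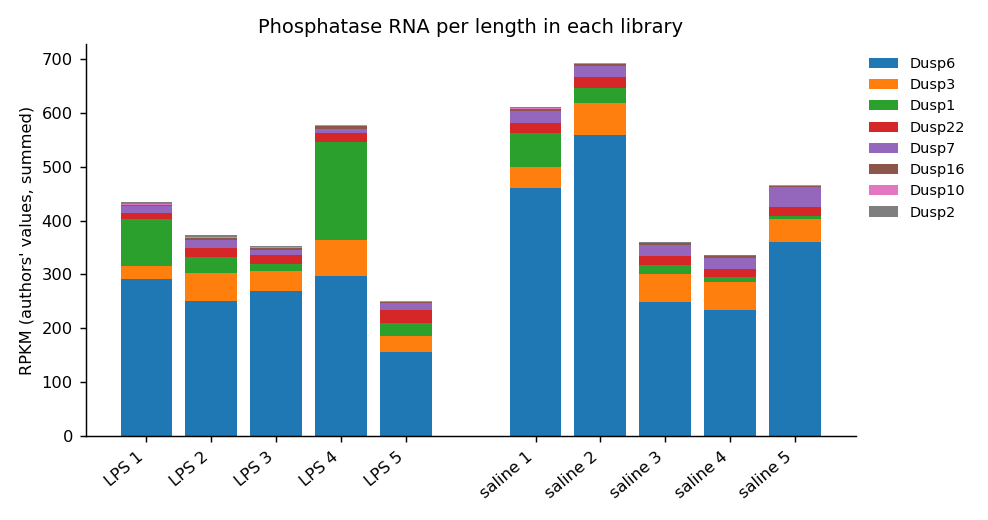
Stacked bars of the authors' RPKM of 8 phosphatase genes in each LPS library (left) and saline library (right). Dusp6 takes the largest part of every bar, and Dusp1 is widest in LPS replicates 4 and 1 and in saline replicate 1.

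Dusp7 encodes a cytoplasmic phosphatase that prefers ERK. The gene (Entrez 235584, protein coding, chromosome 9, 106368560 to 106375724 on GRCm38) had 40.1, 50.5, 31.4, 28.2 and 39.5 CPM in LPS replicates 1 to 5, and 74.9, 68.6, 65.8, 65.9 and 116.6 CPM in saline replicates 1 to 5. Every LPS mouse lay below every saline mouse, and saline replicate 5 was the highest. Dusp7 averaged 37.9 ± 8.72 CPM in LPS and 78.3 ± 21.7 CPM in saline (SD, n = 5 each), a 2.07-fold lower level (log2 fold change -1.05 ± 0.21 SE, edgeR adjusted p = 0.000709). Groups that lay apart in this way with LPS lower were found for 15.7% of all tested genes. The mouse numbers in the sample titles form 3 ranges: a low one with replicates 1 and 2 of both groups, a middle one with LPS replicate 3 and saline replicates 3 and 4, and a high one with LPS replicates 4 and 5 and saline replicate 5. Dusp7 was lower in LPS by a mean log2 CPM difference of -0.67 in the low range, -1.07 in the middle range and -1.80 in the high range, the last with 1 saline mouse. The length-trend-free fit gave -0.97 (edgeR adjusted p = 0.00207).

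Dusp6 encodes the other cytoplasmic ERK phosphatase of the set. The gene (Entrez 67603, chromosome 10, 99263231 to 99267489) had 799, 688, 747, 839 and 428 CPM in LPS replicates 1 to 5, and 1308, 1560, 694, 683 and 1006 CPM in saline replicates 1 to 5. Saline replicates 1, 2 and 5 lay above every LPS mouse, and saline replicates 3 and 4, both from the middle range, lay within the LPS range. Dusp6 averaged 700.1 ± 163 CPM in LPS and 1050.2 ± 384 CPM in saline (SD, n = 5 each; log2 fold change -0.58 ± 0.30 SE, edgeR adjusted p = 0.0616). By ranges of mouse numbers the mean log2 CPM difference was -0.95 in the low range, 0.12 in the middle range and -0.75 in the high range. The call depended on the setting: without LPS replicate 4, saline replicate 3 or saline replicate 4 the adjusted p was 0.0404, 0.0396 and 0.0317, and over all alternatives it lay between 0.0317 and 0.200. Among the saline mice Dusp6 had an SD of 0.53 in log2 CPM, larger than for 95.8% of the 9790 genes that averaged 5 CPM or more; in LPS the SD was 0.39, larger than for 67.3%.

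Dusp1 encodes the founding nuclear phosphatase of the family. The gene (Entrez 19252, chromosome 17, 26505591 to 26508472) had 167, 55.9, 25.5, 356 and 48.1 CPM in LPS replicates 1 to 5, and 125, 56.0, 29.5, 21.2 and 13.4 CPM in saline replicates 1 to 5. The groups overlapped: LPS replicates 4 and 1 were above every saline mouse, and the other LPS mice lay among the saline mice. Dusp1 averaged 130.5 ± 137 CPM in LPS and 48.96 ± 45.3 CPM in saline (SD, n = 5 each), a 2.67-fold difference in means that did not pass the test (log2 fold change 1.41 ± 0.88 SE, edgeR adjusted p = 0.101). Its SD in log2 CPM was 1.52 in LPS, larger than for 99.4% of 9790 genes, and 1.25 in saline, larger than for 99.6%. Without LPS replicate 4 the log2 fold change was 0.60 (edgeR adjusted p = 0.389), and without saline replicate 1 it was 2.12 (edgeR adjusted p = 0.0231). Within the low range the mean log2 CPM difference was 0.21, within the middle range it was 0.026, and within the high range it was 3.28 with 1 saline mouse.

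The mice with high Dusp1 differed in which other genes were high. Fos, Egr1 and Tsc22d3 were picked from the lists after their values were seen. In saline, the order of the 5 mice by Dusp1 was also their order by Fos and by Egr1, immediate early transcription factor genes that respond to growth and stress signals and to tissue dissociation. That order, from highest to lowest, was also the order of their mouse numbers from low to high. A link between these genes and a trend along the numbers cannot be told apart. Fos had 811, 279, 92.3, 232 and 88.1 CPM in LPS replicates 1 to 5, and 799.8, 286, 166, 84.3 and 31.3 CPM in saline replicates 1 to 5. Saline replicate 1 held the highest value of its group for 17 of 18 immediate early genes, and LPS replicate 1 for 14 of 18. The mouse with the highest Dusp1 of all, LPS replicate 4, was below replicates 1 and 2 of its group for Fos and Egr1 and was the highest for 9 of 10 glucocorticoid target genes. One of these, Tsc22d3, which encodes the glucocorticoid-induced leucine zipper, had 574, 155, 483, 2434 and 619 CPM in LPS replicates 1 to 5, and 282, 139, 239.6, 212 and 133 CPM in saline replicates 1 to 5. Fkbp5, a co-chaperone of the glucocorticoid receptor, had 60.5, 83.05, 126, 428 and 207 CPM in LPS replicates 1 to 5, and 36.6, 45.2, 42.1, 53.8 and 53.2 CPM in saline replicates 1 to 5. LPS replicate 1 was the lowest of its group for Fkbp5 and the highest for Fos. For Per1, a gene of the same list named below for its pattern, LPS replicates 4 and 1 were highest (52.2 and 40.2 CPM). The list's sum was also highest in LPS replicates 4 and 1 (4333 and 2891 CPM). In saline, replicate 1 was the highest for Per1 (23.8 CPM) and for the list's sum (3472 CPM), and for 3 of 10 genes of the list. The share of all genes that were highest in each library is not given here. LPS replicate 4 was also the highest of its group for Dusp3, Dusp6 and Dusp16 and for the summed MAP3 kinases and border macrophage markers. It was the lowest of its group for Dusp7 and Dusp10. With 5 mice per group no correlation between these genes was computed, and the part of the immediate early and glucocorticoid target genes in the Dusp1 values was not tested. With the library of each group that had the highest immediate early sum left out, a setting chosen after the data were seen, the log2 fold change of Dusp1 was 2.02 (edgeR adjusted p = 0.0379).

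**Figure D3:**
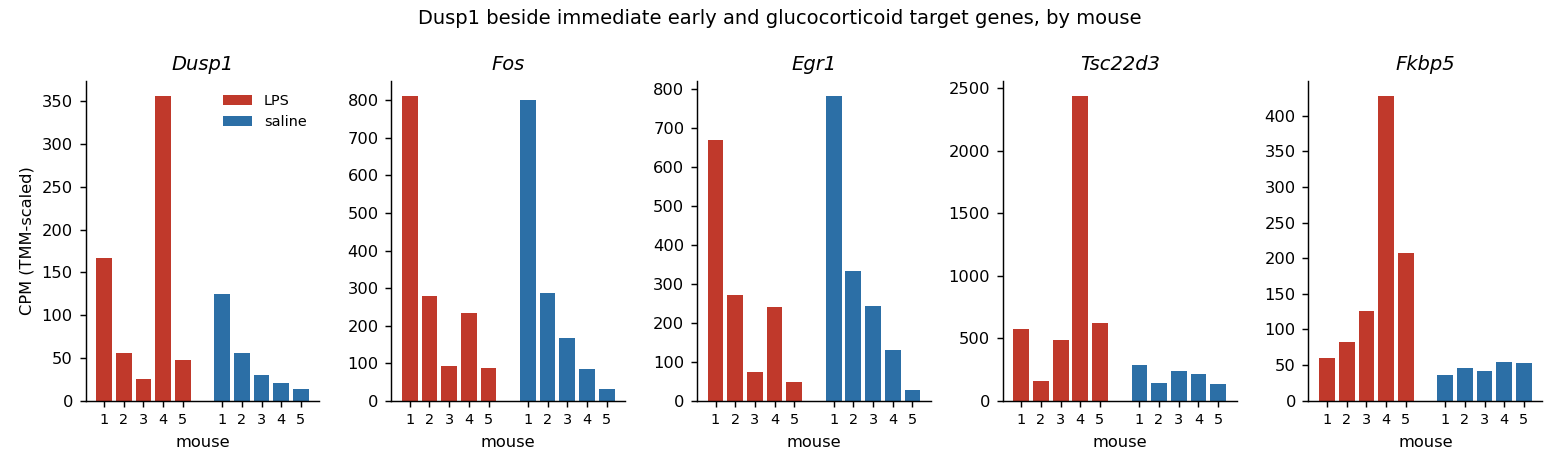
CPM of Dusp1, of the immediate early genes Fos and Egr1 and of the glucocorticoid target genes Tsc22d3 and Fkbp5 in each mouse, LPS bars on the left and saline bars on the right of each panel. LPS replicate 4 is highest for Dusp1, Tsc22d3 and Fkbp5, and replicate 1 of either group is highest for Fos and Egr1.

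The immediate early list as a whole had 4 of 17 tested genes higher in LPS and 0 lower, with a median log2 fold change of 0.14; the share called higher was near the 22.4% of all tested genes. Without LPS replicate 1, 2 were higher and 2 lower. The 4 genes were Ier2, a transcriptional co-regulator (2.84-fold, edgeR adjusted p = 0.0171), Klf6, a zinc finger transcription factor (1.64-fold, 0.00587), and the heat shock genes Hspa1b and Hspa1a. Hspa1b and Hspa1a rested on LPS replicate 1, without which their log2 fold changes were 1.11 (edgeR adjusted p = 0.292) and -0.023 (0.983). With the length trend removed, 2 immediate early genes of 16 tested were higher. Of 9 tested glucocorticoid target genes 7 were higher and 1, the kinase gene Sgk1, was lower (edgeR adjusted p = 0.0368). The call of Sgk1 ended, at an adjusted p of 0.0509 to 0.102, without LPS replicate 2, 3 or 5 or saline replicate 1, 2, 3 or 4. With the length trend removed 6 were higher and 0 lower. Fkbp5 (3.92-fold, edgeR adjusted p = 0.00161), Mt1 (2.89-fold, 0.00191) and Mt2 (17.9-fold, 0.000480), the last 2 being metallothionein genes, had the smallest adjusted p of the list. Without LPS replicate 4 the log2 fold change of Fkbp5 was 1.36 in place of 1.97, and that of Mt2 3.33 in place of 4.16.

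By the root mean square difference of log2 CPM over the 10 libraries, each gene centred on its own mean, the gene closest to Dusp1 among 9790 was Per1, a clock gene that is also a glucocorticoid target, at 0.66 log2 units. Gm34455 and Klf4, a Kruppel-like transcription factor gene, followed at 0.72 and 0.77, and the median over all genes was 1.43. The root mean square of Dusp1 about its own mean was 1.39, the difference that a gene without variation would have. The measure takes in the difference between groups as well as that between mice.

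The RefSeq promoter window of Dusp1, on the gene's strand, is printed because Dusp1 was the only one of 9 members with a promoter entry whose window held a full cyclic AMP response element (CRE, TGACGTCA, searched on both strands), which is in capitals. The window runs 250 bases before to 50 after the annotated start, at chr17:26508423-26508722 on the minus strand of GRCm38.p6.
Dusp1 promoter: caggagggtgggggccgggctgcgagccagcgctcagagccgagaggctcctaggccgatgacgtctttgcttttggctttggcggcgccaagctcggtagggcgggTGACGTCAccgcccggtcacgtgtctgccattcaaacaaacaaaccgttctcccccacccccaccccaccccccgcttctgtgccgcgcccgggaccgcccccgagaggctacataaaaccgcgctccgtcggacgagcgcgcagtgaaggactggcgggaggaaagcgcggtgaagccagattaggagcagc
The CRE was found in 1.79% of all 32851 promoter windows and in that of 1 of 15 immediate early genes, Btg2. The AP-1 element TGANTCA was in none of the 9 windows and in 7.81% of all. The kB motif, in 4.51% of all windows, was in that of Dusp22, and the CArG box, in 1.63% of all windows, in that of Dusp5. The window of Dusp7, the member with groups apart, held none of the 4 motifs and is given for comparison, at chr9:106368382-106368681 on the plus strand.
Dusp7 promoter: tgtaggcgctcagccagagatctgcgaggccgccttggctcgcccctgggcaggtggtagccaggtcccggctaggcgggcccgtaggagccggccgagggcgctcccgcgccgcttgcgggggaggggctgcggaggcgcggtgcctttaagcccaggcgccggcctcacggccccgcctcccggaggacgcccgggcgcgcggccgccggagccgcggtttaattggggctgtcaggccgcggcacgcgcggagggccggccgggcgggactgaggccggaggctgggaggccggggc
These matches describe the letters of the windows and not binding.

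Dusp2 encodes a nuclear phosphatase best known from activated lymphocytes and macrophages. The gene (Entrez 13537, chromosome 2, 127336159 to 127338377) had 4.60, 5.45, 1.40, 1.20 and 0.939 CPM in LPS replicates 1 to 5, from 55, 71, 18, 19 and 12 counts, and 1.19, 0.594, 0.970, 1.56 and 0.783 CPM in saline replicates 1 to 5, from 18, 7, 12, 25 and 11 counts. LPS replicates 1 and 2 were above every other mouse, and the other LPS mice lay within the saline range. Dusp2 averaged 2.72 ± 2.14 CPM in LPS and 1.02 ± 0.374 CPM in saline (SD, n = 5 each), 2.63-fold higher (log2 fold change 1.39 ± 0.53 SE, edgeR adjusted p = 0.0433). The call ended without LPS replicate 1 (adjusted p = 0.107) or 2 (0.148), and without saline replicates 1, 2, 3 or 5 (0.0667, 0.0943, 0.0776 and 0.0848). It also ended in the fit without the gene-length trend, at 1.01 on the log2 scale (edgeR adjusted p = 0.156). Within the low range, to which LPS replicates 1 and 2 belong, the mean log2 CPM difference was 2.38, against 0.16 in the middle range and 0.38 in the high range. The lymphocyte markers other than Cd79b were on the same scale as Dusp2. They summed to 0.313 to 3.36 CPM in LPS and 0.214 to 1.71 CPM in saline. The monocyte sum was higher in LPS, at 144, 78.1, 219, 126 and 191 CPM in replicates 1 to 5. It was lowest in LPS replicate 2, the mouse with the highest Dusp2. The part of these markers in the Dusp2 values was not tested.

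Dusp4 and Dusp5 encode inducible nuclear phosphatases, Dusp5 being specific for ERK. Dusp4 (Entrez 319520, chromosome 8, 34807610 to 34819894) had 9 counts over the LPS libraries, in 2 of them, and 14 over the saline libraries, in 4 of them. Dusp5 (Entrez 240672, chromosome 19, 53529145 to 53541809) had 1, 5, 2, 1 and 0 counts in LPS replicates 1 to 5, and 1 count over the saline libraries, in replicate 4. The ratio of Dusp5 was 8.87 with an exact 95% counting interval of 1.23 to 389, and that of Dusp4 was 0.633 with an interval of 0.242 to 1.57. These intervals leave out the spread between mice and treat each count as a separate molecule. Neither passed the filter on low counts, and without the filter their edgeR adjusted p was 0.716 for Dusp4 and 0.141 for Dusp5, so neither was called. The counting interval of Dusp5 lay above 1 and that of Dusp4 held 1. The part of the Dusp5 promoter window that holds 2 adjacent CArG boxes, the element bound by serum response factor, is printed with the boxes in capitals, at chr19:53529048-53529097 on the plus strand of GRCm38.p6.
Dusp5 promoter part: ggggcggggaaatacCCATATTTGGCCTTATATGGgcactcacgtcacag

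Dusp10 and Dusp16 encode phosphatases directed at JNK and p38. Dusp10 (chromosome 1, 184034381 to 184075636) had 5.10, 4.46, 8.93, 3.74 and 4.38 CPM in LPS replicates 1 to 5, and 5.14, 4.07, 3.80, 3.56 and 2.92 CPM in saline replicates 1 to 5. LPS replicate 3 stood above all others and the remaining mice overlapped (log2 fold change 0.45 ± 0.25 SE, edgeR adjusted p = 0.210). Dusp16 (chromosome 6, 134715468 to 134807063) had 17.0 to 30.9 CPM in LPS, with a median of 19.7, and 16.3 to 26.3 CPM in saline, with a median of 23.3. Its log2 fold change was 0.010 ± 0.19 SE (edgeR adjusted p = 0.969). Dusp16 had a relative length above that of 86.7% of 13104 genes, and in the fit without the gene-length trend it was called higher, at 0.42 on the log2 scale (edgeR adjusted p = 0.0479); its sign was negative in 7 other alternatives.

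The small phosphatases Dusp3, which acts on ERK and JNK in cell culture, and Dusp22, which regulates JNK signalling, were expressed in every library. Dusp3 (chromosome 11, 101971141 to 101987013) had 106, 228, 169, 299.97 and 129.7 CPM in LPS replicates 1 to 5, and 181, 265, 234, 236 and 189.7 CPM in saline replicates 1 to 5. LPS replicate 4 was the highest of all mice and LPS replicates 1, 3 and 5 were below every saline mouse (log2 fold change -0.24 ± 0.29 SE, edgeR adjusted p = 0.422). The SD of its log2 CPM was 0.60 in LPS, above that of 90.0% of genes, and 0.23 in saline, above that of 47.6%. Dusp22 (chromosome 13, 30660059 to 30711232) had 36.3 to 71.9 CPM in LPS and 47.9 to 62.4 CPM in saline (log2 fold change -0.10 ± 0.17 SE, edgeR adjusted p = 0.638). Its saline mice lay close together, with an SD in log2 CPM of 0.14, above that of 13.6% of genes.

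**Figure D4:**
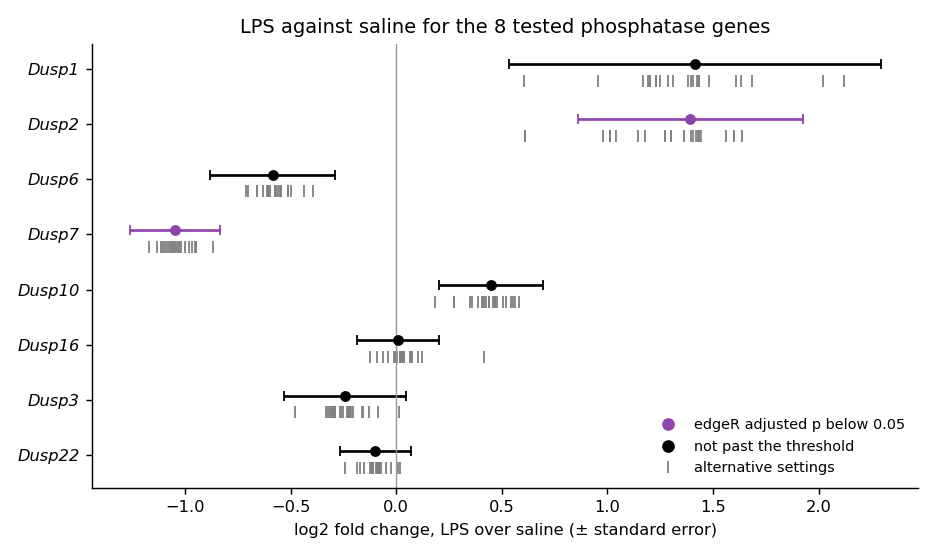
Log2 fold change of LPS over saline from the edgeR fit for the 8 tested phosphatase genes (dots), with a standard error taken from log2 CPM, and the values under 23 alternative settings (ticks). Dusp7 stays between -1.17 and -0.87, and Dusp1 ranges from 0.60 to 2.12.

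Dusp23 and Dusp27, from the wider dual-specificity family, had larger fold changes than any tested member. Of 16 other family genes 8 were tested, 1 was higher and 1 lower, shares below the 22.4% and 22.5% of all tested genes. Dusp23, a small atypical phosphatase, had 8.87, 12.6, 10.6, 11.9 and 19.3 CPM in LPS replicates 1 to 5, and 3.36, 3.90, 3.56, 2.50 and 3.20 CPM in saline replicates 1 to 5 (3.83-fold higher, edgeR adjusted p = 2.89e-05). Dusp27, a catalytically inactive family member studied in skeletal muscle, averaged 4.68 ± 1.36 CPM in LPS and 20.9 ± 2.82 CPM in saline (SD, n = 5 each; 4.47-fold lower, edgeR adjusted p = 3.49e-06). Both had groups that did not overlap, which held for 29.8% of all tested genes in either direction. With the length trend removed their log2 fold changes were 1.47 and -1.93, and both stayed called; 2 of the 8 tested family genes were then higher and 2 lower.

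Among MAP kinases, the substrates of these phosphatases, 4 of 10 tested genes fell and 1 rose, with a median log2 fold change of -0.41; over all tested genes 22.5% fell and 22.4% rose. The same shares apply to the edgeR counts of the lists that follow, and no count is taken as particular to its list. Mapk14, the main p38 kinase of myeloid cells, averaged 131 ± 27.02 CPM in LPS and 203 ± 19.1 CPM in saline (1.55-fold lower, edgeR adjusted p = 0.00341), and Mapk8, which encodes JNK1, 11.7 ± 3.04 CPM in LPS and 21.04 ± 2.66 CPM in saline (1.79-fold lower, 0.00286). The p38 genes Mapk12 and Mapk11 moved apart, Mapk12 being 4.32-fold lower and Mapk11, named after its values were seen, 3.12-fold higher (edgeR adjusted p of 0.00425 and 0.0215). Both were scarce beside Mapk14. Mapk12 averaged 0.576 CPM in LPS and 2.50 CPM in saline, and Mapk11 1.47 CPM in LPS and 0.459 CPM in saline. Without saline replicate 2, 3, 4 or 5 the adjusted p of Mapk11 was 0.0513, 0.0558, 0.0509 and 0.0508. Mapk3, which encodes ERK1 and was named likewise, had a log2 fold change of -0.14 and was not called (edgeR adjusted p = 0.424).

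Of 7 MAP2 kinase genes, which activate MAP kinases, 2 fell and 1 rose, with a median log2 fold change of -0.099. The shares were 28.6% and 14.3%, against 22.5% and 22.4% of all tested genes. Map2k6, a p38 activator, was 1.79-fold lower (edgeR adjusted p = 0.00236), Map2k1, an ERK activator, 1.41-fold lower (0.0108), and Map2k7, a JNK activator, 1.39-fold higher (0.0227). The call of Map2k7 ended without saline replicate 1 or 2 (0.0514 and 0.0557). Of 21 MAP3 kinase genes, 8 fell and 3 rose, with a median of -0.32; without saline replicate 4, 5 fell and 2 rose. Map3k8, the kinase that links LPS sensing to ERK in macrophages, had 169 ± 38.4 CPM in LPS and 36.1 ± 6.42 CPM in saline (edgeR adjusted p = 7.25e-07). Braf, a growth factor-linked activator of ERK, was 2.52-fold lower (2.33e-05). Map3k6 had 8.65 ± 10.8 CPM in LPS and 0.191 ± 0.160 CPM in saline, a log2 fold change of 5.46 (edgeR adjusted p = 0.000467), and 4.38 without LPS replicate 4. With the length trend removed, 3 MAP3 kinase genes fell and 3 rose of 19 tested, and the log2 fold change of Braf was -0.69.

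Of 10 tested kinases activated by MAP kinases, 1 rose and 2 fell, shares below those of all tested genes, with a median of -0.29; with the ranges of mouse numbers as a term 4 fell. Mapkapk2, the p38-activated kinase that stabilises cytokine RNA, was 1.90-fold higher (edgeR adjusted p = 0.00101), and Rps6ka5 and Mapkapk3 had log2 fold changes of -0.86 and -0.59 (0.00353 and 0.0304); with the length trend removed neither of these falls was called (0.0601 and 0.0664). That of Mapkapk3 also ended without LPS replicate 1, 3 or 5 (0.0523, 0.0820 and 0.0725) or saline replicate 4 or 5 (0.0813 and 0.0574). A list of other phosphatases known to act on MAP kinases, without genes of the dual-specificity family, had 5 tested genes (median -0.18). None was called: edgeR gave 0 with an unadjusted p under 0.05 and DESeq2 called 0 of 6. Lower calls numbered 1 with the length trend removed, with the ranges of mouse numbers as a term, and without LPS replicate 4. Ppp2ca, the catalytic subunit of protein phosphatase 2A, had 69.7 ± 8.56 CPM in LPS and 65.04 ± 9.67 CPM in saline, and Ppm1a 24.9 ± 8.18 CPM in LPS and 32.6 ± 4.29 CPM in saline.

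Genes induced by ERK or feeding back on it, a list with 15 of 16 entries matched, had 8 tested members. Of these 2 fell and 1 rose (median -0.17), or 25% and 12.5%, against 22.5% and 22.4% of all tested genes. Without LPS replicate 3 or saline replicate 1, 2 or 5, 3 rose, and without LPS replicate 5 or saline replicate 3 or 4, 2 rose. Etv5 and Etv1, ETS transcription factor genes often read beside Dusp6 as ERK outputs, averaged 45.0 ± 3.28 and 10.2 ± 3.32 CPM in LPS, against 88.6 ± 11.0 and 27.7 ± 3.65 CPM in saline (1.97-fold and 2.71-fold lower, edgeR adjusted p = 3.66e-05 and 0.00012). Their groups did not overlap, which held with LPS lower for 15.7% of all tested genes. Those of Dusp6 did overlap. Ier3, an early response gene, was 10.3-fold higher (edgeR adjusted p = 1.14e-05). DESeq2, which called 37% of all genes in either direction, called 5 of 13 members higher and 2 lower, with 13 rather than 8 of the list's genes tested, and the fit without the gene-length trend called 3 of 8 higher and 2 lower.

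**Figure D5:**
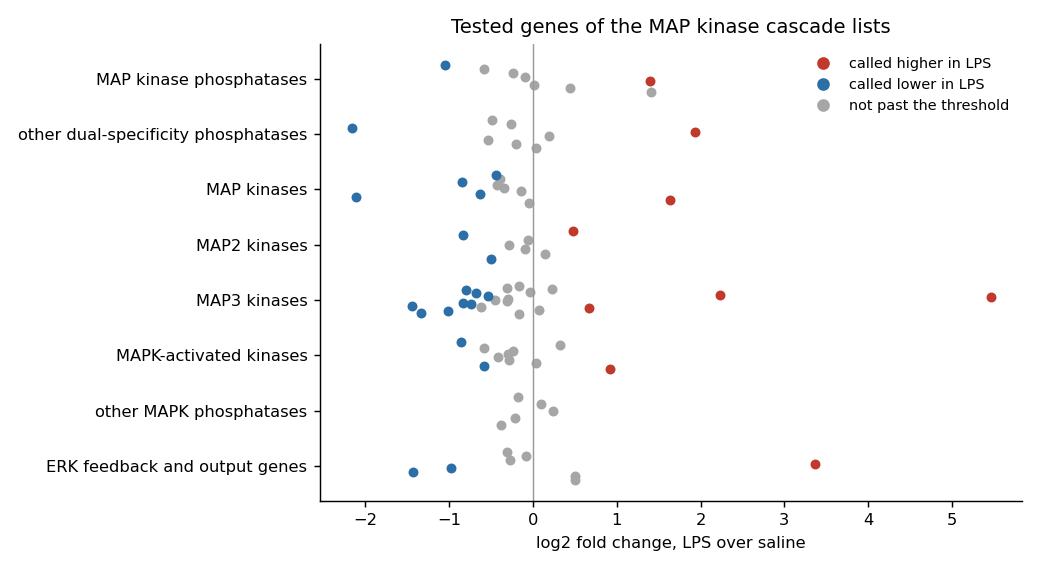
Log2 fold change of LPS over saline for each tested gene (dot) of the phosphatase and MAP kinase cascade lists, coloured by the edgeR call. Lower and higher calls number 4 and 1 of 10 MAP kinases and 8 and 3 of 21 MAP3 kinases. Of all tested genes 22.5% were lower and 22.4% higher. With the length trend removed, 3 MAP3 kinases were lower and 3 higher of 19 tested. The highest value, 5.46, is Map3k6.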

How the data were processed

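One library was made for each of 5 LPS and 5 saline mice. According to the labels' protocols, 5 ng of RNA were amplified and 6 ng of the product were used per library. The authors deposited raw counts per gene and, as a second unit, normalised RPKM values whose scaling is not explained. The submitters' processing notes name featureCounts, GRCm38 and mm10. The aligner and the annotation were not given in the sources used here. Neither was the use of strand, which leaves overlapping and antisense genes uncertain. Another RPKM table was not used here. There were 15 gene names written as dates, which were restored by gene ID, and 1 row without a name or counts was dropped.

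The count test was edgeR 4.0.16 (R 4.3.3): TMM, filterByExpr, the quasi-likelihood F test and Benjamini-Hochberg adjustment at 0.05. SEs are from log2 CPM with a prior count of 2, whereas the fold changes beside them are from the edgeR fit. Alternatives were other scalings and filters, DESeq2 1.42.0, limma-voom (limma 3.58.1), limma on log2(RPKM + 1) or log2(RPKM + 0.1) with a minimum mean RPKM of 1 or none, ranges of mouse numbers as a term, a gene-length trend removed from each library, and each mouse left out. Relative lengths are count over RPKM for 13104 genes. Summaries used Python 3.11.15 and scipy 1.17.1, and the tests were checked on simulated counts. Within groups, the lowest chi-square of a library pair was 13.4 per degree of freedom, above sampling noise. Libraries held 11577295 to 15332121 counts. The protocols describe no molecular identifiers, so copies of 1 molecule made by amplification cannot be told from separate molecules. The counting intervals treat each count as independent and may be too narrow.

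Members and lists were chosen with earlier results of these data known. All members were named; from each pathway list the 3 called genes with the smallest adjusted p, or the 2 most abundant where none was called, could be named, and from each list of other cells the 2 most abundant. For each tested member the 3 genes of closest pattern could be named. A few further genes (Fos, Egr1, Tsc22d3, Hspa1a, Sgk1, Mapk3, Mapk11, Map3k9, Ccr2, Spn, Cxcr2, Cldn5, Gfap, Mrc1) were picked after their values were seen. Promoter sequences are from RefSeq, GRCm38.p6, with entries for 9 of the 10 members.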

Additional observations from a re-analysis of the deposited data

Results flagged for a closer look

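Single mice stood apart from the other 4 of their group by Dixon's test in 10 of 93 groups checked. Chance alone flags about 1 in 20 groups where values follow a normal distribution, which was not tested for CPM. All 10 were the highest of their group. The phosphatases among them were Dusp10 in LPS replicate 3, at 8.93 CPM against 3.74 to 5.10 CPM in the other LPS mice, and Dusp7 in saline replicate 5, at 116.6 CPM against 65.8 to 74.9 CPM in the other saline mice. Without saline replicate 5 the log2 fold change of Dusp7 was -0.87 (edgeR adjusted p = 0.00127). LPS replicate 4 was the highest of its group for Braf (25.5 CPM), Mapk14 (179 CPM), Ppm1a (39.0 CPM) and the border macrophage marker Stab1 (1842 CPM). Saline replicate 4 was the highest of its group for Mapk14 (236 CPM). Hspa1b was highest in replicate 1 of both groups, at 54.4 CPM in LPS and 2.50 CPM in saline. The endothelial marker Pecam1 was highest in saline replicate 2, at 72.0 CPM.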

How the results depend on the processing

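The fall of Dusp7 passed the threshold under all 23 alternatives, with log2 fold changes of -1.17 to -0.87 and adjusted p of 1.47e-05 to 0.00367. The call of Dusp2 ended in 15 of 23 alternatives, Dusp1 was called in 3 and Dusp6 in 5. No member was called higher (0) with library size only, with limma-voom, with the ranges of mouse numbers as a term, or on RPKM with either pseudocount or no filter; leaving out 1 mouse gave 0 to 1. The member called higher was Dusp1 without a filter (log2 fold change 1.40), without saline replicate 1 (2.12) and with the mice of highest immediate early sum left out (2.02), and Dusp16 with the length trend removed (0.42). With library size only and with no filter 2 members were called lower, and leaving out 1 mouse gave 1 to 2. The cause of these changes was not tested.

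Some log2 fold changes changed sign. Dusp16 was -0.0014 with upper quartile factors, -0.064 with library size only, -0.0065 with no filter and -0.010 with mouse ranges, and -0.13 to 0.10 with 1 mouse left out, negative without LPS replicate 2 (-0.039), LPS replicate 4 (-0.13) or saline replicate 5 (-0.092). Dusp22 was 0.0080 without LPS replicate 1 and -0.24 to 0.0080 with 1 mouse left out, and 0.018 with the mice of highest immediate early sum left out; Dusp3 was 0.014 with the length trend removed. Map3k9, 1 of the 8 MAP3 kinase genes called lower (-0.67), was 0.038 with the length trend removed. Hspa1a, called higher (3.53), was -0.023 without LPS replicate 1, within -0.023 to 4.23 with 1 mouse left out. Over all genes 2647 to 3704 were called higher and 2434 to 3559 lower.

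No paired analysis was possible because the labels state no pairing of mice between groups. Neighbouring mouse numbers occur in both groups, and what they mark is not stated; in the fit with ranges of mouse numbers as a term Dusp2 was no longer called (adjusted p = 0.0623). Depth limits the scarce members: Dusp2 rested on 7 to 71 counts per library, and Dusp4 and Dusp5 were not tested.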

Other observations

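The genes closest in pattern to the other members are given as values, by the root mean square difference of centred log2 CPM over the 10 libraries. For Dusp7 they were Crim1, Fads6 and Abhd17c, at 0.21, 0.21 and 0.22, where the median over 9790 genes was 0.68. For Dusp6 they were 2010315B03Rik, Nxt2 and Unc13b, at 0.22, 0.23 and 0.24, with a median of 0.62. Dusp3 was closest to Gm35564 and Sgms1, a sphingomyelin synthase gene, at 0.14 and 0.15, with a median of 0.57. Dusp22 was closest to Nfia, a transcription factor gene, at 0.13, with a median of 0.46. A gene without variation would differ by 0.60 from Dusp7, 0.50 from Dusp6, 0.44 from Dusp3 and 0.25 from Dusp22.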
